A study of Rattus norvegicus with 14 samples.

Results

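Cytochrome P450 genes of families 1 to 4, which encode the heme enzymes that oxidize drugs, steroids and fatty acids, were followed in the choroid plexus (CP) of gonadectomized and sham-operated rats. Members were all genes whose symbol reads Cyp, a family number from 1 to 4, a subfamily letter and a number. The gene table used for naming lists 62 protein-coding genes of this kind, and 51 of them had a probe with a name on the arrays, of 15154 named genes in all. There were 3 members in family 1, 29 in family 2, 5 in family 3 and 14 in family 4. They had 61 probes between them, and for the 8 members with more than 1 probe the brightest was read.

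CP of the lateral ventricles was taken from Wistar rats operated at 2 months of age and killed 2 weeks later. Females were either ovariectomized (OVX, 3 arrays) or sham-operated (sham female, 3 arrays), and males either orchidectomized (OOX, 4 arrays) or sham-operated (sham male, 4 arrays), with no hormone given back in any group. Each of the 14 arrays held 1 pool of RNA from 3 animals, labelled with Cy3 and hybridized in a single colour. The methods name 3 pools per group while the labels give 4 for each male group, and fewer animals are stated than separate pools would need, so that the pools may not be independent, and a p-value measures only the spread between pools. The study asked which CP genes respond to the loss of the gonads in each sex. Wistar rats are outbred, and a pool gives 1 value for its 3 animals.

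P450 enzymes of families 1 to 3 are best known from liver, where they clear foreign compounds and hydroxylate steroid hormones, and several of the rat forms differ between male and female liver under the control of growth hormone. Enzymes of family 4 and of the Cyp2j and some Cyp2c subfamilies act on fatty acids such as arachidonic acid and give signaling lipids. CP is the epithelium that secretes cerebrospinal fluid and separates it from blood, and it is known to carry drug-metabolizing enzymes and transporters. Microsomal P450 enzymes draw their electrons from NADPH cytochrome P450 reductase (Por) and cytochrome b5.

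Values are given as log2 of the background-subtracted signal over the median signal of the array, called the level, so that 0 is the signal of the median probe. The scanner software marks each spot as well above background or not, and this mark is used throughout. Levels of different probes were not set against each other. All 12 markers of CP epithelium, among them Ttr, Kl, Folr1 and Aqp1, were well above background on all 14 arrays. Within a group arrays correlated with r from 0.974 to 0.992 across genes, which are not independent, and 79.7% to 87.2% of spots were well above background. There were 5 slides and 2 scan days, with the sham females and OVX 1 read on the first day and all others on the second. The lowest signal that counted as well above background lay between -4.28 and -3.75 in sham females and between -4.80 and -4.63 in OVX females, with -4.72 to -3.90 in sham males and -4.72 to -4.10 in OOX males. In bulk tissue fewer cells of a type and less RNA per cell cannot be told apart.

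Of the 51 P450 genes, 23 (45.1%) were well above background on every array, against 75.4% of all named genes. A further 16 members (31.4%, against 15.7%) were so on some arrays and 12 (23.5%, against 8.88%) on no array. Family 4 had 11 of its 14 members on every array, family 2 had 11 of 29, family 1 had 1 of 3 and family 3 had 0 of 5. With the more lenient mark of the scanner software, positive and significant signal, 32 members were above background on every array.

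**Figure D1:**
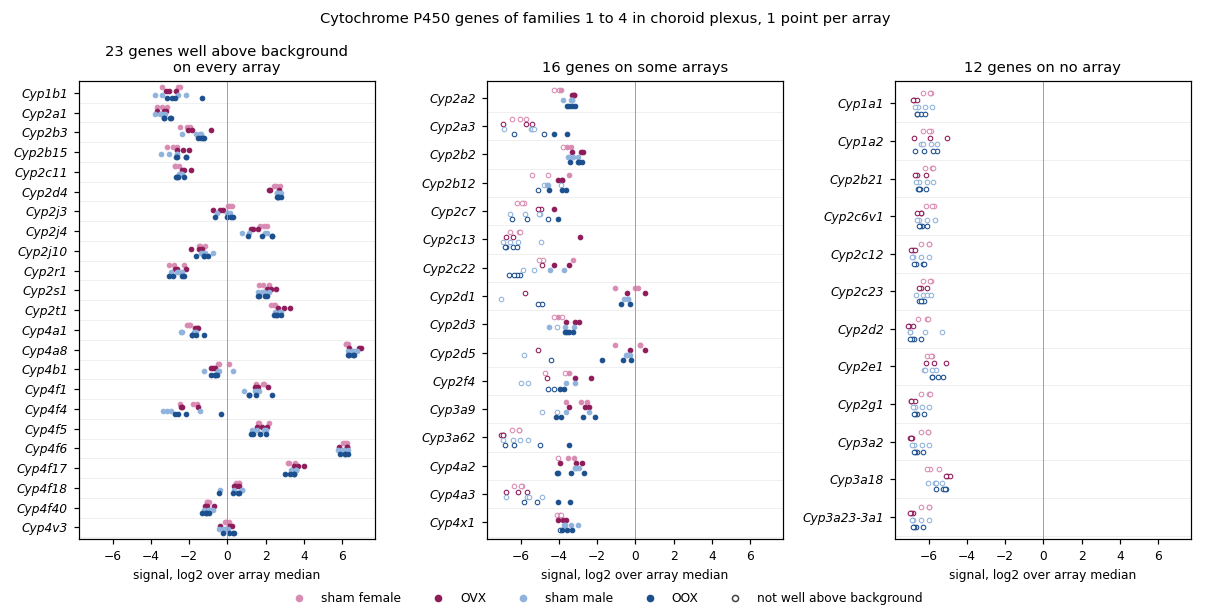
Levels of the 51 P450 genes (x axis, log2 relative to the array median), with 1 point per array, coloured by group and drawn open if not well above background. The 23 genes on the left are filled on all arrays, 16 in the middle on some, and the 12 on the right are open on all 14.

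The fatty acid hydroxylases of family 4 made up much of the measured set. Of 15 genes listed for omega-hydroxylation of fatty acids, 13 had a probe and 11 were well above background on every array. Cyp4f6, which acts on leukotrienes and related lipids, had a level of 5.79 to 6.33 over the 14 arrays, and Cyp4f17 had 3.02 to 3.99. Cyp4f1 and Cyp4f5 had levels of 0.85 to 2.33 and 1.22 to 2.19, and Cyp4f18 and Cyp4f40 of -0.42 to 0.77 and -1.31 to -0.71. Cyp4a8 read 6.21 to 7.0 with its brightest probe, but its other probe was well above background on 1 of 14 arrays and had a mean of -5.98. These probes of Cyp4a8 also moved in opposite directions after OVX (0.49 and -0.81), so the gene counts here as uncertain. Cyp4a1, a target of the fatty acid receptor Ppara in liver, had -2.42 to -1.21, Cyp4b1, known from lung, -1.25 to 0.30, and Cyp4v3, which hydroxylates fatty acids of medium length, -0.44 to 0.37. Cyp4a2 (-4.10 to -2.69), Cyp4a3 (-6.77 to -3.45) and Cyp4x1 (-4.11 to -2.99), the last known from brain, were well above background on 12, 2 and 10 arrays.

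Family 2 held enzymes of several kinds. The Cyp2j enzymes, which turn arachidonic acid into epoxides, were measured throughout, with levels of 0.75 to 2.32 for Cyp2j4, -0.73 to 0.31 for Cyp2j3 and -1.89 to -0.75 for Cyp2j10. Cyp2r1, which hydroxylates vitamin D in liver, read -3.08 to -2.16, and Cyp2s1, an enzyme of epithelia outside the liver, 1.62 to 2.52. Cyp2t1 had a level of 2.29 to 3.29 and Cyp2d4, the Cyp2d form known from rat brain, 2.19 to 2.79. Also measured on every array were Cyp2b3 (-2.47 to -0.85), Cyp2b15 (-3.48 to -2.03), Cyp2c11 (-2.73 to -1.91) and Cyp2a1 (-3.79 to -2.95). Cyp2b2, which phenobarbital induces in liver (-3.77 to -2.74), and Cyp2b12 (-5.43 to -3.45) were measured on 13 and 8 arrays, and Cyp2f4 (-5.98 to -2.33) and Cyp2a3 (-6.92 to -3.56), known from lung and nose, on 7 and 2.

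Families 1 and 3 were mostly dim. Cyp1b1, which hydroxylates estradiol and is known from tissues outside the liver, was measured on all 14 arrays at -3.78 to -1.31. Cyp1a1 and Cyp1a2, which the Ah receptor induces, were not well above background on any array. The same held for Cyp3a2, Cyp3a18 and Cyp3a23-3a1, while Cyp3a62 was measured on 1 array (OOX 1) and Cyp3a9 on 12. In family 2 the dim members were Cyp2b21, Cyp2c6v1, Cyp2c12, Cyp2c23, Cyp2d2, Cyp2e1, which oxidizes ethanol, and Cyp2g1 of olfactory mucosa. For these 12 genes only the limit of detection is known, not that they are absent. Of 8 genes listed for sex-dependent expression in rat liver, 2 were measured on every array (Cyp2c11 and Cyp2a1) and 3 on none (Cyp2c12, Cyp3a2 and Cyp3a18). Of 7 known from nasal mucosa and lung, 3 were measured on every array. Of 10 hepatocyte markers, 3 were well above background on every array (Apoa2, Serpina1 and Fgg) and 3 on none (Fga, Tat and Cps1).

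The Cyp2d cluster held the widest differences between single pools of one group. These genes were picked out after their values were seen. They lie side by side on chromosome 7 in the reference gene order, as Cyp2d4, Cyp2d5, Cyp2d1, Cyp2d3 and Cyp2d2, and code for closely related enzymes that oxidize amine drugs. The promoters of Cyp2d1, Cyp2d5 and Cyp2d3 are shown because the first and second of these genes had the same pattern over the arrays and the third did not. They are the 250 bases before the start of each gene on the minus strand, from RefSeq on GRCr8, at chr7:115793431-115793680, chr7:115784488-115784737 and chr7:115802143-115802392. Capitals in Cyp2d1 and Cyp2d5 mark bases that differ between these 2 sequences, and capitals in Cyp2d3 mark bases that differ from Cyp2d1, within the aligned stretch.
Cyp2d1: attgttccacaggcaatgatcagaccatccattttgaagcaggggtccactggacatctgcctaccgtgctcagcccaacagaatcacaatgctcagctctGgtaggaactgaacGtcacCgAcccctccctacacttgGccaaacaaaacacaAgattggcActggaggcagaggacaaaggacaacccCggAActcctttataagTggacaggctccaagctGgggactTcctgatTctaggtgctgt
Cyp2d5: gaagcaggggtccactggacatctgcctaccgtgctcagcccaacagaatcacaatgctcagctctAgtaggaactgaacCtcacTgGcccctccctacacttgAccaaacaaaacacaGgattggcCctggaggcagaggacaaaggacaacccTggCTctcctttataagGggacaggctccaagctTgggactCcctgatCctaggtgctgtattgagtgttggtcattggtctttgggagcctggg
Cyp2d3: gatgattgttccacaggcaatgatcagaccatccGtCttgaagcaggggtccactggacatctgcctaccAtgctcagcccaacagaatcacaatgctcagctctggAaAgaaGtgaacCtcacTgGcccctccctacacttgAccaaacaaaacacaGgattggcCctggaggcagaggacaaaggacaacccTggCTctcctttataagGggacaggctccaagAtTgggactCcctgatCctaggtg
The aligned stretch of Cyp2d1 and Cyp2d5 was identical at 201 of 215 bases (93.5%), that of Cyp2d1 and Cyp2d3 at 226 of 246 (91.9%) and that of Cyp2d5 and Cyp2d3 at 205 of 211 (97.2%). No stretch of over 23 columns aligned between Cyp2d1 and Cyp2d4 or Cyp2d2. All 3 printed promoters hold, once on the printed strand, AGGNCA followed by any 1 base and AGGNCA again, a direct repeat of the kind that Hnf4a and Ppara bind, in a search of both strands. Among 33469 rat promoters of this length 123 (0.368%) hold it. They also hold TTTATAA, which matches the core promoter element that places the start of transcription. It is in 3.6% of the promoters, and neither motif is in the windows of Cyp2d4 and Cyp2d2. The motifs were chosen after the sequences had been read.

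Cyp2d1 was near the array median on 10 arrays and not well above background on the other 4. Its level was 0.00, 0.13 and -1.08 in sham females 1 to 3 and 0.50, -5.77 and -0.46 in OVX females 1 to 3. In males it was -7.02, -0.38, -0.38 and -0.59 in sham 1 to 4 and -4.88, -5.11, -0.74 and -0.27 in OOX 1 to 4. Thus OVX 2, sham male 1, OOX 1 and OOX 2 were low, each group but sham females had at least 1 low pool, and the groups overlapped. The range of 7.53 over the arrays was exceeded by 24 named genes.

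Cyp2d5 was low on the same arrays. It read 0.22, 0.24 and -1.04 in sham females, 0.52, -5.08 and -0.27 in OVX females, -5.83, -0.51, -0.27 and -0.45 in sham males, and -1.73, -4.44, -0.67 and -0.22 in OOX males. It stayed well above background on OOX 1, where Cyp2d1 did not, and its range of 6.34 was exceeded by 82 named genes. Near-identical copies such as these may share probe signal, and the probe sequences were not used here. Cyp2d4, the next gene of the cluster, had a range of 0.59 over the same 14 arrays. Cyp2d3 had a level of -4.53 to -2.93 and Cyp2d2 was dim throughout.

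Neither Cyp2d1 nor Cyp2d5 differed between groups beyond this spread. For Cyp2d1 the difference was -1.59 (SE 1.58, adjusted p = 0.600) after OVX and -0.65 (SE 1.76, adjusted p = 0.964) after OOX in limma. For Cyp2d5 it was -1.42 (SE 1.43, adjusted p = 0.608) and 0.00 (SE 1.39, adjusted p = 1). The narrowest of these 95% confidence intervals, that of Cyp2d5 after OOX, ran from -3.18 to 3.18 on the log2 scale, so that even large changes were not detectable with these pools.

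Serhl2, a serine hydrolase gene further along the same chromosome, was low on the same 4 arrays. It read 0.41 in OVX 2, -0.21 in sham male 1, -0.03 in OOX 1 and -0.16 in OOX 2, against 1.78 to 2.94 on the other 10 arrays. Ndufa6, next to Cyp2d4, and Pacsin2, beyond Serhl2, had these arrays as their 4 lowest too, with ranges over all arrays of 0.62 and 1.05. In all, 1062 of 15118 genes with a value on every array had these 4 arrays as their lowest. Among them the largest gaps between the fourth and the fifth lowest array were those of Cyp2d1 (3.8), Serhl2 (1.37) and Cyp2d5 (0.68). The summed level of 9 neuron markers was 3.48 in OVX 2, 6.04 in sham male 1, 3.76 in OOX 1 and 4.99 in OOX 2, within or above the 1.93 to 5.41 of the other arrays, and the part of other cells in this pattern was not tested.

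**Figure D2:**
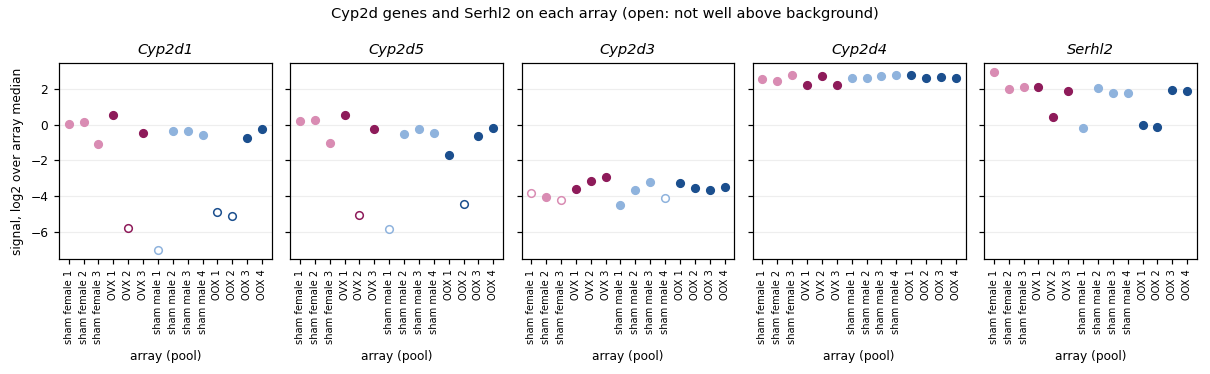
Levels of Cyp2d1, Cyp2d5, Cyp2d3, Cyp2d4 and Serhl2 (y axis, log2 relative to the array median) in the 14 pools (x axis), with 1 point per pool, coloured by group and drawn open if not well above background. Cyp2d1, Cyp2d5 and Serhl2 drop on OVX 2, sham male 1, OOX 1 and OOX 2, while Cyp2d4 stays between 2.19 and 2.79.

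A few other members stood out on single arrays, again named after their values were seen. Cyp2c13, a male form in rat liver, was well above background on OVX 2 alone, at -2.90 against -6.93 to -4.95 on the other 13 arrays. Cyp1b1 was highest on OOX 2 (-1.31) and next on sham male 3 (-2.19), and lowest on sham male 2 (-3.78). The median level of 10 fibroblast markers, all of them well above background on every array, was highest on OOX 2 (4.51) and sham male 3 (4.10) and lowest on sham male 2 (2.50). Their summed level was highest on sham male 3 (9.13), then sham female 1 (8.93), sham female 2 (8.91) and OOX 2 (8.89), and lowest on sham male 1 (7.77). The median of 10 endothelial and mural markers was also highest on OOX 2 (3.15) and sham male 3 (2.32), but it was lowest on OOX 3 (1.49). The summed level of these 10 was highest on sham female 2 (7.66), with sham male 3 at 7.56 and OOX 2 at 7.54. By summed level each of these lists shared 4 of its 5 highest arrays with Cyp1b1.

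Cyp4f4 was highest on OOX 2 (-0.31), followed by sham male 1 (-1.42), OVX 3 (-1.57), sham female 3 (-1.60) and sham female 2 (-1.82). Those 5 arrays were also the 5 highest in the summed level of the neuron markers (4.20 to 6.04) and of 6 astrocyte markers (5.83 to 6.53). Of the 23 P450 genes measured on every array, Cyp4f4 was the only one that shared all 5 with either list. The summed neuron level ran from 3.01 to 5.41 in sham females, 2.49 to 4.20 in OVX, 1.93 to 6.04 in sham males and 2.76 to 4.99 in OOX. The part of fibroblasts, vessels or neural tissue in the levels of Cyp1b1 and Cyp4f4 was not tested.

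Whether ovariectomy changed P450 genes was asked by setting OVX against sham females. By limma with Benjamini-Hochberg adjustment over all genes and unnamed probes, 7 of the 51 members passed an adjusted p under 0.05 (13.7%), against 6.22% of all named genes. Of these 2 were higher after OVX (background 1.81%) and 5 lower (background 4.4%). The median difference of the members was 0.01, against -0.07 for all named genes. At an unadjusted p under 0.05 there were 21 members (background 19.9%), 10 higher (background 9.25%) and 11 lower (background 10.7%). The calls were uneven across the classes of signal. Of the 24 members well above background on every female array 0 passed by limma (background 2.06%). At an unadjusted p under 0.05 there were 7 of these 24 (background 19.9% over named genes of all classes). Of the 12 on some female arrays 2 passed (background 7.92%), and of the 15 on no female array 5 passed (background 31.7%). Without sham female 2 there were 8 calls, and without any other single female array 0, so that the count rests on each of the other 5 arrays. It was 0 with scan day as a block or after quantile normalization.

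**Figure D3:**
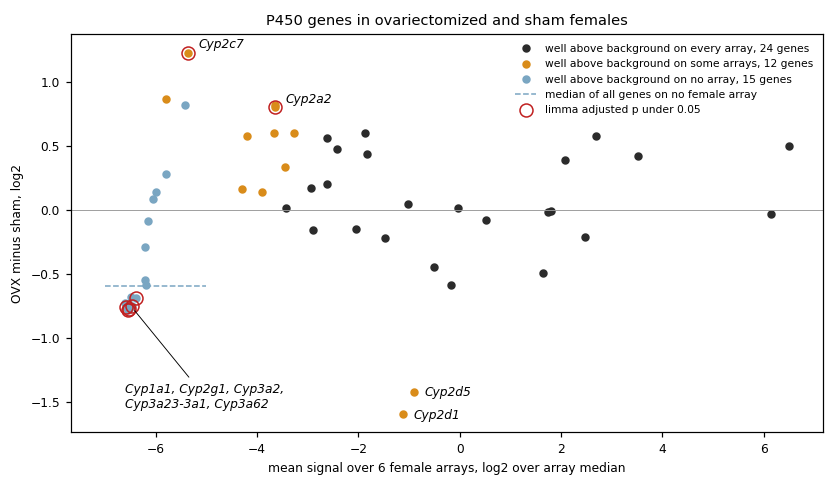
Difference between OVX and sham females (log2, y axis) against the mean level over the 6 female arrays (log2 over array median, x axis) for the 51 P450 genes, coloured by the number of female arrays on which the gene was well above background, with red rings at a limma adjusted p under 0.05. The 5 ringed genes at the lower left lie by the dashed line, which is the median of -0.59 of all genes on no female array.

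Cyp2a2, a testosterone hydroxylase of male rat liver, read higher in OVX than in sham females, but the call was lost in several alternatives. Its level was -4.0, -3.90 and -4.24 in sham females and -3.23, -3.30 and -3.21 in OVX females, and it was well above background on 1 of 3 sham and all 3 OVX arrays. The groups did not overlap, and the difference was 0.80 (SE 0.14, n = 3 pools per group, limma adjusted p = 0.0401). Between the 1 sham and the 1 OVX array that shared a slide it was 1.01. With every value raised to a common detection floor of -3.75 the difference was 0.50 (limma adjusted p = 0.0345). All 3 sham values lay below that floor and became equal. This p therefore leaves out the spread between sham pools and cannot test the call. The limma adjusted p was from 0.0791 to 0.125 without any 1 array other than sham female 2. After normexp background correction the difference was 0.08, and blocking on scan day gave 0.82 (limma adjusted p = 0.278). All named genes that, like Cyp2a2, were measured on only some female arrays had a median difference of 0.48.

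Cyp2c7, a liver form that is higher in females, passed in the same direction with a brightest probe that was well above background on 1 OVX array and on no sham female array. The probe read -5.82, -6.21 and -5.91 in sham females and -4.94, -5.07 and -4.24 in OVX females (limma adjusted p = 0.0415). No fold is given, because the sham values are below the limit of detection and no bound above 1 could be set. The other probes of Cyp2c7, on no array well above background, differed by -0.79 and -0.62.

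The 5 members that passed in the lower direction were Cyp1a1, Cyp2g1, Cyp3a2, Cyp3a23-3a1 and Cyp3a62 (limma adjusted p from 0.0401 to 0.0493). None was well above background on a female array, so no fold is given. Cyp3a2, a steroid hydroxylase of male liver, read -6.03, -6.43 and -6.02 in sham females and -6.88, -7.0 and -6.95 in OVX females. Over the 15 members dim in all females the median difference was -0.58, against -0.59 for all named genes of that kind, with 11 of 15 lower. After quantile normalization the median was -0.04 with 8 of 15 lower, and after normexp -0.05 with 15 of 15 lower. The common floor of -3.75 lay above every female value of these 5 genes, so it left no difference and could not test them.

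The level of dim genes differed between the female groups in the same way. The median of the 12 members that no array measured was -6.32 to -5.92 on the sham female arrays and -6.73 to -6.56 on the OVX arrays. For all named genes that no array measured it was -6.27 to -5.90 and -6.76 to -6.70. What the shift of dim signal contributes to the 5 calls was not tested beyond these values. Among markers of other cells, 2 fibroblast markers and 1 hepatocyte marker were called lower after OVX (background 4.4%). The 10 fibroblast markers had a median difference of -0.71, with Mgp (-0.82, SE 0.18, limma adjusted p = 0.0489) and Aldh1a2 (-0.82, SE 0.18, adjusted p = 0.0459) lower after OVX. Their summed level ran from 8.69 to 8.93 in sham females and from 7.91 to 8.51 in OVX. The median level of these markers overlapped, from 3.34 to 3.63 in sham females and from 2.94 to 3.76 in OVX. The 9 neuron markers, 7 of them on every array, had a median difference of -0.69, none passed, and their summed levels overlapped between the groups. In the remaining cell type lists no marker passed, and median differences ran from -0.34 (astrocyte) to 0.27 (red blood cell). Of the 10 hepatocyte markers 1 was called lower, Tat (limma adjusted p = 0.0401), which no array measured, and the median difference of the list was 0.00. The part of other cells in the differences of P450 genes was not tested.

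**Figure D4:**
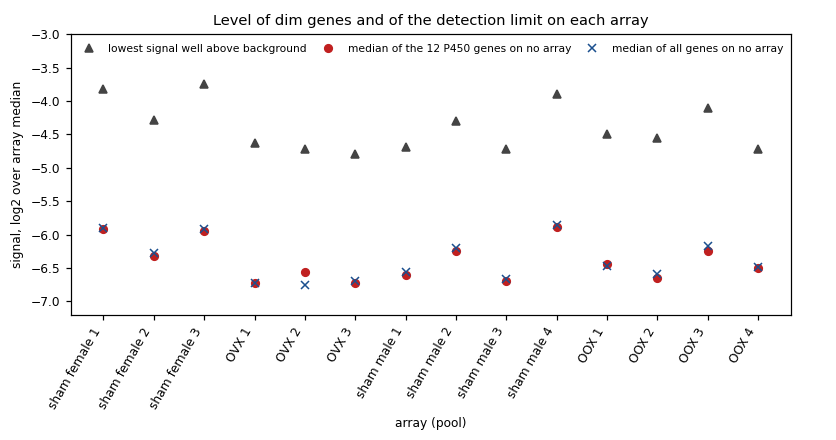
Median level of the 12 P450 genes on no array (red points) and of all named genes on no array (blue crosses), with the lowest signal counted as well above background (triangles), by array (x axis), in log2 relative to the array median (y axis). The red points and crosses lie close together, and both are lower on the 3 OVX than on the 3 sham female arrays, as are the triangles.

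Among members measured on every array of a female group, the smallest p after Cyp2a2 belonged to Cyp2d3 and Cyp4a1. Cyp2a2 and Cyp2d3 met this condition through OVX alone, where they were higher, and such a choice favours genes that rise. All named genes measured on some female arrays had a median difference of 0.48. Cyp2d3 read -3.87, -4.07 and -4.25 in sham females and -3.64, -3.16 and -2.93 in OVX females, a difference of 0.82 (SE 0.22, limma adjusted p = 0.0758), with 1 of 3 sham arrays well above background. Cyp4a1 read -1.97, -2.11 and -2.03 against -1.70, -1.53 and -1.58, a difference of 0.43 (SE 0.12, limma adjusted p = 0.0830). The values of each did not overlap between groups, but neither passed. With a common floor the difference of Cyp2d3 was 0.51, with scan day as a block 0.42 and after normexp 0.11, and that of Cyp4a1 was 0.16 after normexp.

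Of the epoxide-forming enzymes, Cyp2j3 and Cyp2j4 lay lower in OVX. Cyp2j3, named after its values were seen, read 0.23, 0.02 and 0.11 in sham females and -0.41, -0.73 and -0.25 in OVX females. The groups did not overlap, the difference was -0.59 (SE 0.16, limma adjusted p = 0.0849) and its second probe differed by -0.51. Cyp2j4 differed by -0.49 (SE 0.16, adjusted p = 0.132), and by -0.10 with its second probe. In the other direction Cyp2t1 differed by 0.57 (SE 0.18, adjusted p = 0.128) and Cyp2c11 by 0.48 (SE 0.16, adjusted p = 0.149). None of these passed the adjusted test.

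The methods' t-test, which asks for a p under 0.05 with no adjustment and a change of over 1.5-fold, passed 13 members in females (background 11.1%), 5 higher (background 4.3%) and 8 lower (background 6.79%). The 5 higher ones were Cyp2a2, Cyp2b2, Cyp2c7, Cyp2d3 and Cyp3a18. The 8 lower ones were Cyp2j3 and 7 members that no female array measured. After Benjamini-Hochberg adjustment 0 were left.

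After orchidectomy no member passed. Against sham males 0 of 51 members had a limma adjusted p under 0.05 (background 0.0858%), and 1 had an unadjusted p under 0.05 (background 6.88%). The methods' t-test at its thresholds found the same 1 gene (background 2.33%) and 0 after adjustment. The median difference of the members was 0.00, against 0.02 for all named genes.

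That gene was Cyp2c22, a retinoic acid hydroxylase of liver. Its level was -5.89, -3.74, -4.49 and -5.30 in sham males and -6.04, -6.61, -6.17 and -6.35 in OOX males. Of the sham arrays 2 of 4 were well above background, and of the OOX arrays 0 of 4. The groups did not overlap, but the sham pools were spread from -5.89 to -3.74 and the fitted difference did not pass (limma adjusted p = 0.504), and no bound above 1 could be set for a fold. In females it read -4.82, -3.24 and -5.04 in sham and -3.46, -4.26 and -4.91 in OVX, where the groups overlapped and the difference was 0.16 (SE 0.57, adjusted p = 0.897).

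The smallest p among members measured on every array of a male group were those of Cyp2b15, Cyp2a1 and Cyp4v3. Cyp2b15 read -3.48, -3.03, -2.65 and -2.62 in sham and -2.19, -2.66, -2.18 and -2.67 in OOX males, a difference of 0.52 (SE 0.23, n = 4 pools per group, limma adjusted p = 0.650). Cyp2a1 differed by 0.35 (SE 0.17, adjusted p = 0.678) and Cyp4v3 by 0.33 (SE 0.17, adjusted p = 0.719). After normexp the difference of Cyp2a1 turned to -0.06 and that of Cyp2b15 was 0.07, and with slide as a block that of Cyp4v3 was 0.12. Over the 25 members on every male array the differences ran from -0.21 to 0.78. Cyp4f4 had the widest confidence interval of the 23 genes on all arrays, from -0.61 to 2.17 after OOX, and Cyp2d4 the narrowest, from -0.27 to 0.27.

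**Figure D5:**
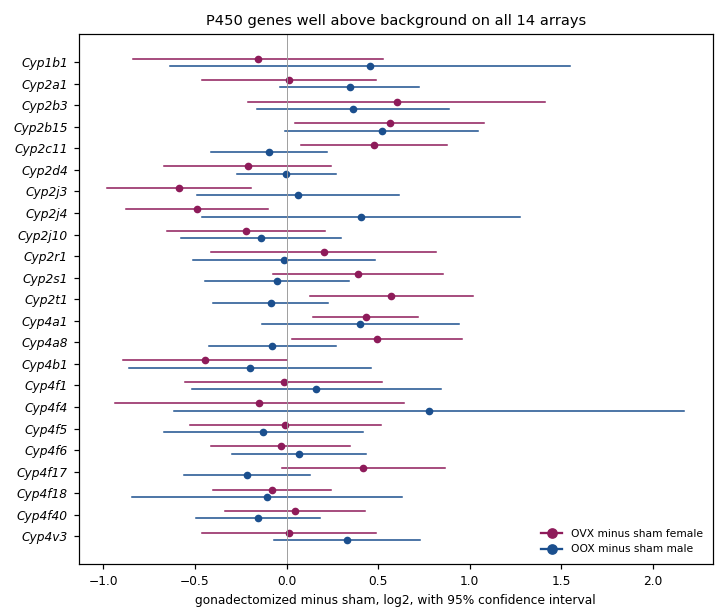
Difference between gonadectomized and sham animals (log2, x axis) for the 23 P450 genes well above background on all 14 arrays, with points for the difference and lines for its 95% confidence interval from limma, OVX minus sham females above and OOX minus sham males below in each row. Intervals of Cyp2j3, Cyp2j4, Cyp2b15, Cyp2c11, Cyp2t1, Cyp4a1 and Cyp4a8 leave out 0 in females, none does so in males, and none of these genes passed the adjusted test.

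The male effect minus the female effect was tested over all 14 arrays. Of the members 0 passed (background 0.251%), with 9 at an unadjusted p under 0.05 (background 10.3%). The smallest p among measured members was that of Cyp2a2, whose effect was 0.06 in males and 0.80 in females, a difference of -0.74 (SE 0.21, limma adjusted p = 0.227). With a common floor, which raises the sham females below detection, it was -0.45 (adjusted p = 0.440). Cyp2t1 (-0.66, SE 0.22, adjusted p = 0.323) and Cyp2c11 (-0.57, SE 0.20, adjusted p = 0.365) followed, and after normexp the difference of Cyp2c11 was -0.31. For Cyp2c22, which was well above background on 5 of 14 arrays, no direction could be set, since the difference was -1.60 (SE 0.75, adjusted p = 0.436) as fitted and 0.07 with a common floor. An effect of gonadectomy particular to one sex was thus not shown for any member.

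Since many P450 genes differ between the sexes in rat liver, sham males were also set against sham females. Of the members 0 passed (background 0.389%), and 2 had an unadjusted p under 0.05 (background 10.2%). Cyp2a2 read -3.77, -3.32, -3.37 and -3.32 in sham males, above the 3 sham females, of which 1 was well above background. The fitted difference was 0.60 (SE 0.15, limma adjusted p = 0.114), and with a common floor it was 0.31 (adjusted p = 0.371). Its levels in OOX males, -3.33, -3.58, -3.48 and -3.16, and in OVX females were also above all 3 sham females. The adjusted p was 0.0201 with arrays scaled to the 75th percentile, 0.0474 in the deposited value table and 0.0481 without sham male 1. Cyp4x1 was well above background on 4 of 4 sham male and 0 of 3 sham female arrays. The detection limit was -4.28 to -3.75 in sham females and -4.72 to -3.90 in sham males. With dim values raised to that limit the means differed 1.31-fold, and the fitted difference did not pass (limma adjusted p = 0.345). The 1.31-fold leaves out the spread between pools and is not a minimum. The fitted difference of Cyp4x1 was 0.53, and 0.08 after normexp. Next by p was Cyp2t1 (0.28, SE 0.15, adjusted p = 0.515). Cyp2c11, the male form of rat liver, had an interval from -0.10 to 0.53 and Cyp2a1 from -0.46 to 0.32. All sham females were scanned on the first day and all sham males on the second, and no slide held both, so that sex and scan day cannot be told apart here.

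Genes that serve P450 enzymes were measured to differing degrees. All 11 genes for electron transfer and heme, among them Por (level 3.33 to 4.45), Cyb5a (3.90 to 4.58) and Alas1, the first enzyme of heme synthesis (6.38 to 7.96), were well above background on every array. None passed by limma in females or males, with the smallest adjusted p of 0.0891 for Alas1 after OVX (-0.47, SE 0.13). Of 10 genes of the Ah receptor pathway 9 had a probe, all well above background on every array, and none passed. The nearest were Ugt1a6, a glucuronosyl transferase (-0.75, SE 0.17, adjusted p = 0.0504), and Arnt2, a partner of the receptor (-0.75, SE 0.18, adjusted p = 0.0635), both in OVX. Of 16 nuclear receptors and liver factors 13 were on every array and none passed. The nearest were the vitamin D receptor Vdr (0.52, SE 0.13, adjusted p = 0.0616) and Hnf4a (0.96, SE 0.25, adjusted p = 0.0750), both in OVX. Of 11 partners in epoxide and eicosanoid metabolism 6 were on every array and none passed. Ptgs2, a prostaglandin synthase measured on 3 arrays, was nearest in OVX (adjusted p = 0.0590), and Ephx2, which opens fatty acid epoxides, had differences of -0.28 (SE 0.16, adjusted p = 0.359) in OVX and -0.51 (SE 0.17, adjusted p = 0.601) in OOX.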

How the data were processed

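RNA of 14 CP pools was measured on Agilent 1-colour rat arrays. The deposited scanner output gives a fluorescence intensity per spot. Before deposit the authors' Agilent Feature Extraction software took off the background and a spatial trend, and it did not scale arrays to each other. The deposited value table holds log2 values that the authors centred on the median in BRB-ArrayTools, and served as an alternative. Saturated spots were kept, but not controls or the 222 to 877 outlier spots of each array. Spots of a probe were averaged and log2 signal minus the array median was taken. Accessions of probes were turned into symbols with RefSeq genes of GRCr8, which served for names and gene order, because the array design was annotated on rn4. This named 18004 of 30367 probes. The brightest probe of a gene was read.

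Within each sex, gonadectomized and sham pools were fitted in limma 3.58.1 (R 4.3.3), using lmFit and eBayes and no covariate. The difference between the sexes and the sham sexes were tested over all arrays. P-values were Benjamini-Hochberg adjusted over all genes and unnamed probes, with calls under 0.05, and intervals are at 95%. The methods' t-test is a plain test on the same values, called at p under 0.05 without adjustment and over 1.5-fold. A member dim in 1 group has a bound, in which dim values are raised to the weakest signal well above background on their array. The bound is a difference of means and leaves out the spread between pools. The members and lists were chosen with earlier results of these data known. By rule the text names members measured on every array of a group, members that passed and up to 3 list genes by p. It also names the 3 smallest p per comparison among those measured in a group. A further 9 genes, most of which the study itself names or lists, were named whatever their values. Others are said to be chosen after their values were seen. Promoters were aligned with Biopython 1.88. Python 3.11.15 (numpy 2.4.6, pandas 2.3.3) and the R package data.table (version 1.17.8) read the files. The limma fits were tested on simulated data. Alternatives tried were 75th percentile and quantile scaling, normexp (offset 50), leaving out dim probes, the value table, averaging all probes of a gene, blocks for slide, scan day and replicate number, all arrays in 1 fit, the methods' t-test, each array left out, another detection mark and, chosen after seeing the data, a common floor. The files have no mean spot signal, so normexp was run on the median spot signal and its background. The number of arrays limits the precision.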

Additional observations from a re-analysis of the deposited data

Results flagged for a closer look

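In groups of 4 pools, 71 sets of values of a member measured in that group were searched for 1 pool far from the other 3. In all, 5 were found. Chance gives about 1 in 20 of the sets, so 5 of 71 is near that share. The sets come from the same male arrays and are not independent. All 5 were sham male 1 as the lowest pool. Cyp2d1 read -7.02 there with the next pool at -0.59, and Cyp2d5 -5.83 with the next at -0.51. The other 3 gaps were small. Cyp2a2 read -3.77 with the next pool at -3.37, Cyp2t1 2.47 with the next at 2.73, and Cyp4f17 3.31 with the next at 3.58. Sham male 1 also had the highest summed level of neuron markers (6.04) of the 14 arrays. Without it 1 member passed in sham males against sham females, Cyp2a2 (0.71, limma adjusted p = 0.0481).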

How the results depend on the processing

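The 7 members called in OVX against sham females became 0 after quantile normalization, after normexp, with slide, scan day or replicate number as a block and by the methods' t-test after adjustment. There was 1 with the filter on dim probes, with a common floor and with all arrays in 1 fit, each time Cyp2a2, and 13 by the methods' t-test at its thresholds. The filter leaves out the other called members and the floor makes their female values equal, so they could not pass with either. Cyp2a2 was kept by the filter through OVX alone, where it was higher, and the floor made its sham female values equal. Neither setting is thus a separate test of its call. Scaling to the 75th percentile gave 8, 5 passed in the value table and 6 with the mean over probes. Leaving out 1 array gave 0 to 8. Over all named genes the count of 942 fell to 0 with slide or replicate number as a block, which leave few degrees of freedom, 14 with scan day as a block, 64 after quantile normalization and 112 after normexp. Slide and scan day rest on OVX 1, the 1 OVX array that shared either with sham females. In OOX against sham males the count of 0 became 1 by the methods' t-test. In sham males against sham females it became 1 (Cyp2a2) scaled to the 75th percentile and in the value table, and 0 to 1 with 1 array left out, while in the difference between the sexes it was 0 in all 24 alternatives. The count of 23 members on every array was 23 or 24 with 1 array left out. The sign turned for 3 values, Cyp2c7 in OVX (-0.0615 as the mean over its probes), Cyp2a1 in OOX (-0.0584 after normexp) and Cyp2c22 in the difference between the sexes (0.0671 with a common floor). The causes were not tested. Whether replicate numbers pair the pools cannot be told from so few pools. Deviations of same-numbered pools correlated at 0.14, -0.02 and 0.10 in females and from -0.31 to 0.14 in males. The replicate block took the female count from 7 to 0. It changed no call in males, where the count was already 0 and no call could be lost. With 3 or 4 pools per group and signal near background, small changes of dim members could not be seen.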
